A study of Mus musculus with 2 samples.

Results

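Matrix-producing tumour cells were the tumour-like cells with the highest expression of 8 secreted matrix genes in 2 single-cell libraries of G422 glioma, a transplantable mouse brain tumour. Barcodes were called tumour-like if they held at least 10000 UMIs (counted transcript molecules), at most 15% mitochondrially encoded UMIs, few UMIs of immune and endothelial genes and at least 20 UMIs of Vim, an intermediate filament gene. The members were selected on a matrix score, the mean of ln(1 + UMIs per 10000) over Postn, Mgp, Aspn, Col1a1, Dmp1, Srpx2, Lum and Col3a1, as the top 10% of tumour-like cells over both libraries. They numbered 510 of 5103 tumour-like cells, themselves part of 7954 barcodes of 10000 or more UMIs. The LTS (long-term survivor) library gave 183 of its 1389 tumour-like cells, and the control library gave 327 of 3714.

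Both libraries came from Kunming mice carrying G422 (G422TN) cells in the brain. The LTS mice had outlived an earlier tumour by more than 100 days after combined therapy, were inoculated a second time in the opposite hemisphere and again lived more than 100 days. The control mice were untreated and were taken 7 days after inoculation. Day 7 is also given for the LTS tissue, and the labels do not make clear which inoculation it counts from. Tissue was digested with collagenase and DNase, and the Percoll layer that was collected is one that holds immune cells, so the cells analysed are those that reached this layer. The number of mice per library is not given. With 1 library per group and members chosen on their own expression, no comparison below carries a test, and all intervals cover counting error only.

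Extracellular matrix is built from fibrillar collagens, the network and beaded-filament collagens around them, and glycoproteins such as fibronectin and fibrillin that organise the fibres. Small leucine-rich proteoglycans set fibril thickness, and matricellular proteins such as periostin, thrombospondins and tenascin signal to cells through integrins rather than carrying load. Normal brain tissue holds little fibrillar collagen outside vessels and meninges, whereas gliomas with mesenchymal features can express many of these genes.

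The tumour-like label was set against markers of other cells. The 4 Y-linked genes Ddx3y, Eif2s3y, Kdm5d and Uty together reached 0.201 CPM (counts per 1000000 UMIs of the summed cells) in matrix-producing cells and 0.988 CPM in other tumour-like cells of the LTS library, and 0.858 and 0.864 CPM in the control library. In barcodes with 2 or more UMIs of the leukocyte gene Ptprc they reached 85.0 CPM in the LTS library and 45.4 CPM in the control library. Rhox5, an X-linked homeobox gene of placenta and reproductive tract, stood at 599 CPM in matrix-producing and 666 CPM in other tumour-like cells of the LTS library. In the control library it stood at 681 and 728 CPM. In the barcodes with 2 or more Ptprc UMIs it reached 239 CPM (LTS) and 505 CPM (control), so it separated the control barcodes little. Of the lineage markers of brain, Olig2 and Snap25 had no UMI in the matrix-producing cells of either library. Sox10 had no UMI in LTS members and 1 in control members. The astrocyte gene Gfap had 3 UMIs and the pericyte gene Rgs5 at most 2 in the members of each library. These genes were scarce in other tumour-like cells too. There Olig2 had 1 UMI in each library, and Gfap stood at 0.403 CPM (LTS) and 0.527 CPM (control). Of the 12 fibroblast markers, Col1a1, Col3a1 and Lum are rule genes. Outside the rule 3 were measured, all 3 with positive ratios, and 1 was called higher in both libraries. In the members of each library 2 of the 12 had no UMI. Among other tumour-like cells of the control library, 96.4% held a UMI of Dcn and 52.5% a UMI of Pdgfra. Dcn stood at 641 CPM in matrix-producing and 391 CPM in other tumour-like cells of the LTS library, and at 717 and 378 CPM in the control library. Ptgds, a marker of meningeal fibroblasts, stayed at or below 2.15 CPM in all 4 sums. The 12 myeloid markers summed to 87.0 CPM in matrix-producing and 83.7 CPM in other tumour-like cells of the LTS library, and to 194 and 193 CPM in the control library. They include Ptprc, C1qa, C1qb and C1qc, whose UMIs per cell the gate limits at any depth, so the gate itself holds this sum down. Whole marker lists gave a mixed picture. The 9 astrocyte markers summed to 428 CPM in matrix-producing and 299 CPM in other tumour-like cells of the LTS library, and to 373 and 255 CPM in the control library, nearly all from Gja1, a gap junction gene (417 and 293 CPM, and 365 and 249 CPM). The 10 pericyte and smooth muscle markers summed to 263 and 110 CPM in the LTS library and to 253 and 107 CPM in the control library, nearly all from Cspg4 and Pdgfrb. Pdgfrb, a receptor of mesenchymal cells, stood at 150 and 37.1 CPM and at 145 and 33.3 CPM. The 10 meningeal fibroblast markers summed to 743 and 448 CPM and to 811 and 425 CPM, mostly from Dcn, with Foxc1 (60.2 and 28.6 CPM, and 61.2 and 23.3 CPM) and Tbx18 also present and 6 of the 10 without a UMI in the members of either library. The 9 oligodendrocyte lineage markers summed to at most 18.9 CPM and the 8 neuron markers to at most 14.4 CPM in all 4 sums. The part of such other cell types in the results was not tested.

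The score formed a single declining tail with no gap at the limit. The lowest member scored 1.43101 and the highest of the other cells 1.43068. Within 0.1 of the limit lay 117 members above and 121 other cells below. Over the 50 cells just inside the limit, thinned to 10000 UMIs each, Postn stood at 580 CPM, Mgp at 1430 CPM and Col1a1 at 458 CPM. Over the 50 just outside, Postn stood at 494 CPM, Mgp at 1232 CPM and Col1a1 at 436 CPM. Aspn (78.0 CPM inside and 68.0 CPM outside) and Col3a1 (1836 and 1470 CPM) ran the same way, whereas Srpx2 (174 and 244 CPM), Lum (188 and 254 CPM) and Dmp1 (168 and 176 CPM) were higher just outside. The members are therefore described as a range of a graded state, and 464 of 510 (91.0%) were members again when every cell was thinned to 10000 UMIs. No member barcode occurred in both libraries.

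**Figure D1:**
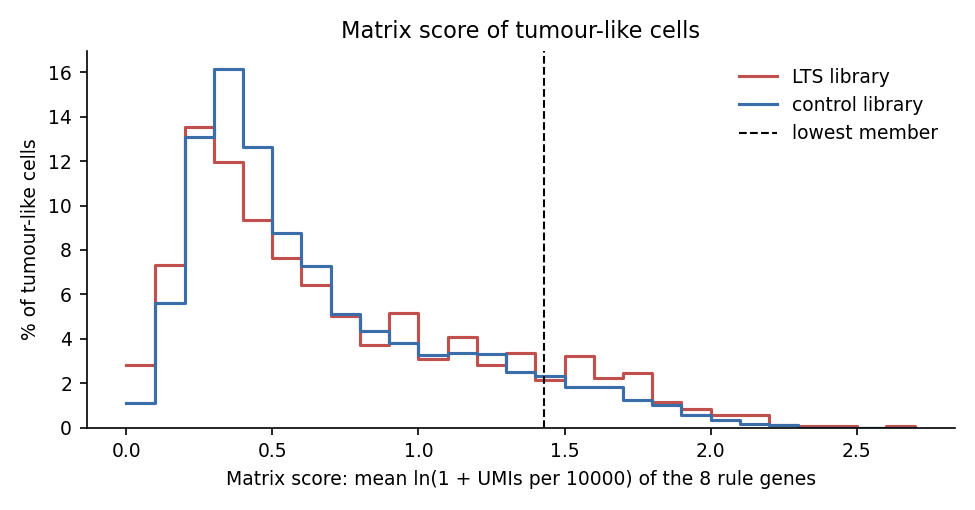
Matrix score of tumour-like cells in the LTS (red) and control (blue) libraries, as the percent of each library's tumour-like cells per 0.1 of score. Both curves peak below 0.5 and decline without a gap through the lowest member's score of 1.43101 (dashed line).

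The start regions of the rule genes and of genes named as higher outside the rule come first. Of 22 genes (the 8 rule genes and the 14 named as higher below), 16 had a start region in the RefSeq promoter table of build GRCm38.p6. The last 100 bases before the annotated start were searched on both strands for 4 short motifs, which were chosen after some of these sequences had been read. A TATA box (TATAAA) occurred in 3 of the 16 (18.8%) and in 5.56% of all 32851 start regions. An AP-1 site (TGANTCA) occurred in 1 of 16 (6.25%) against 2.73% of all. A core of the cAMP response element (TGACG) occurred in 2 of 16 (12.5%) against 10.5% of all, and a TEAD site (GGAATG) in 0 of 16 against 4.71% of all. Only start regions with a match are printed below, with matches in capitals. Positions count back from -1 at the base before the start. Rgs2, which holds the cAMP response element core at -67, is not printed. The TATA box begins at -26 in Postn, at -31 in Tgfb2 and at -32 in Adamts1. Tgfb2 also holds the cAMP response element core on the other strand at -72, and Srpx2 holds the AP-1 site at -59. Postn is read from chr3:54361007-54361106 (plus strand), Tgfb2 from chr1:186705990-186706089 (minus strand), Adamts1 from chr16:85803114-85803213 (minus strand) and Srpx2 from chrX:133908325-133908424 (plus strand).
Postn: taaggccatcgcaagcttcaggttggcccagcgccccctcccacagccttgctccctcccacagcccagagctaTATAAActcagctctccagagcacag
Tgfb2: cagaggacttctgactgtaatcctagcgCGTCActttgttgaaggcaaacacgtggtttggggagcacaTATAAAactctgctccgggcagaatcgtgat
Adamts1: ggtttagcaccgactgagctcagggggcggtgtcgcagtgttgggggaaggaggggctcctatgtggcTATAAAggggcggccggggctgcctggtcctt
Srpx2: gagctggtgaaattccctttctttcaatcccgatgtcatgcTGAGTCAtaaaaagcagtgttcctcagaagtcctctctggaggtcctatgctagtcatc

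The 8 rule genes chose the members, so their levels are a description. Postn (periostin, a secreted binder of collagen and integrins; mm10 chr3:54361109-54391037) stood at 901 CPM in matrix-producing and 64.6 CPM in other tumour-like cells of the LTS library, and at 857 and 71.7 CPM in the control library. Mgp (matrix Gla protein, an inhibitor of calcification) stood at 1982 and 217 CPM in the LTS library and at 1923 and 225 CPM in the control library. Aspn (asporin, a small leucine-rich proteoglycan) stood at 162 and 9.05 CPM in the LTS library and at 154 and 8.48 CPM in the control library. The members of both libraries, taken above a common limit on these genes, lay far above the other tumour-like cells of either. Per cell thinned to 10000 UMIs, a median of 7 of the 8 genes had a UMI in members and 3 in other cells, in both libraries. All 8 had a UMI in 36 of 183 LTS members and 74 of 327 control members, so most members lacked a UMI of at least 1 rule gene at this depth.

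Each rule gene was then left out and the top 10% were chosen by the other 7, which gives its level in cells that it did not choose. Aspn was 14.3-fold higher in cells so chosen than in the other tumour-like cells of the LTS library (95% counting interval 12.8 to 16.1), and 14.6-fold higher in the control library (13.1 to 16.2). Postn was 11.1-fold (10.6 to 11.6) and 9.79-fold (9.38 to 10.2) higher. Dmp1, which encodes an acidic matrix protein of osteocytes and dentine, was 7.72-fold and 6.64-fold higher. Col1a1, the main chain of type I collagen, was 7.17-fold and 7.13-fold higher, and Mgp 7.01-fold and 6.11-fold. The sushi-repeat protein gene Srpx2 was 4.98-fold and 5.38-fold higher. The smallest ratios were those of Lum (lumican, 2.93-fold and 2.42-fold) and of Col3a1, type III collagen (2.91-fold and 3.0-fold). Each of the 8 was higher in cells chosen by the other 7 in both libraries. The 8 genes were set with earlier results of these data known and vary together. Positive ratios were thus built into the choice, and they are a description and no independent check. Col3a1 also stood at the highest level of the 8 in other tumour-like cells, and the size of its ratio is no measure of how closely it followed the others. Among its pairs, Mgp and Col3a1 had a Spearman correlation of 0.60 over LTS and 0.54 over control tumour-like cells. Over all tumour-like cells the 28 pairs of rule genes had a median Spearman correlation of 0.41 in the LTS library (range 0.19 to 0.60) and 0.36 in the control library (range 0.17 to 0.54). All of these points share a library and their depth, and within the members the medians were -0.01 and -0.07, where selection on the sum lowers them.

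Outside the rule, 6599 genes reached 20 CPM in members or other cells of each library. They were compared as log2 of (members + 5 CPM) over (others + 5 CPM), and a gene was called at a 2-fold difference on this scale. In the LTS library 202 genes were called higher in matrix-producing cells (3.06%) and 139 lower (2.11%), and in the control library 200 higher (3.03%) and 133 lower (2.02%). In both libraries 173 genes were called higher (2.62%) and 85 lower (1.29%), and no gene was called in opposite directions. The median over all genes was -0.04 in the LTS library and -0.05 in the control library. These genes come from the same cells that the rule chose, so the counts are a description of the state. Some of the genes called higher, such as Ccdc80, reached 20 CPM through the members alone, and their number was not counted.

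Depth and cell cycle moved with the members. Their median was 25788 UMIs against 39209 in other tumour-like cells of the LTS library, and 13303 against 20591 in the control library. In the control library 73.1% of members held under 15000 UMIs, in the LTS library 4.92%. Mitochondrially encoded UMIs had a median of 7.17% in members and 5.52% in others of the LTS library, and 7.39% and 5.54% in the control library. The nuclear RNA Malat1 was higher in members by 1.20 (LTS) and 1.43 (control) on the log2 scale. At 10000 UMIs each, members and others held similar numbers of genes (medians 3291 and 3300 in the LTS library, 3356 and 3378 in the control library). Of the members, 20 of 183 in the LTS library and 26 of 327 in the control library reached the median UMIs of their library's tumour-like cells. Among cells at or above that median, with these members kept, 121 genes were called higher in both libraries, 103 of them among the 173, and 38 lower. When the top 10% of those cells were chosen again, the 80 LTS and 175 control cells taken were mostly below the main score limit, and 70 genes were called higher, 66 of them among the 173, and 14 lower. Among low-cycling cells, with 15 or fewer UMIs of 40 cell cycle genes per 10000, 67 genes were called higher, 64 of them among the 173, and 16 lower. The part of depth and cycle in the remaining calls was not tested.

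Among the genes named as highest outside the rule, several encode secreted matrix proteins. Ccdc80, which encodes a secreted matrix-associated protein, stood at 62.7 CPM in matrix-producing and 4.96 CPM in other tumour-like cells of the LTS library, and at 64.2 and 4.69 CPM in the control library. Its ratio was 12.6-fold (10.7 to 15) in the LTS library and 13.7-fold (11.7 to 16) in the control library. Col8a1 (a network-forming collagen of vessel walls and basement membranes; mm10 chr16:57624258-57754737) stood at 103 and 9.80 CPM in the LTS library and at 103 and 11.3 CPM in the control library. Thbs2 (thrombospondin 2, a matricellular protein) was 5.94-fold (5.32 to 6.63) and 5.98-fold (5.36 to 6.66) higher. Adamts1, a secreted metalloproteinase that cuts proteoglycans, was 5.73-fold and 4.71-fold higher, and Serpine2, a secreted inhibitor of serine proteases, 4.70-fold and 4.50-fold. Members thus carried RNA of matrix assembly genes together with that of genes that cut matrix and that inhibit proteases. In the other cells Ccdc80, Col8a1, Thbs2 (17.7 CPM LTS and 16.6 CPM control) and Adamts1 (18.3 and 18.7 CPM) were under 20 CPM. They were therefore measured through the members alone, which favours positive ratios. Serpine2 (25.6 and 24.5 CPM) was not.

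Signalling genes formed the next group. Tgfb2, a ligand of the TGF-beta family, stood at 174 and 31.0 CPM in matrix-producing and other cells of the LTS library, and at 147 and 29.7 CPM in the control library. Igfbp3, which binds insulin-like growth factors, was 9.71-fold (8.97 to 10.5) and 7.16-fold (6.58 to 7.79) higher. One LTS member held 8.27% of all Igfbp3 UMIs of that group. Spry1, an inhibitor of receptor tyrosine kinase signalling, was 4.68-fold and 5.05-fold higher, and Rgs2, which shortens G protein signals, 5.17-fold and 5.12-fold. Nrp1, a co-receptor for semaphorins and VEGF, stood at 380 and 95.2 CPM in the LTS library and at 337 and 80.1 CPM in the control library.

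Of the transcription factors, Prrx2, a homeobox gene of limb and craniofacial mesenchyme, was 5.89-fold (5.39 to 6.44) and 6.57-fold (6.0 to 7.2) higher. The orphan nuclear receptor gene Nr4a2 was 8.31-fold (7.72 to 8.94) and 5.91-fold (5.45 to 6.40) higher, and Maf 4.69-fold and 4.62-fold. Cygb, which encodes cytoglobin, was 8.73-fold and 5.96-fold higher. It stood at 7.94 CPM (LTS) and 9.21 CPM (control) in the other cells, so it too was measured through the members alone. Over 10 equal bins of cells ordered by matrix score, Prrx2 and Nr4a2 were highest in bin 10, which holds the members. Prrx2 stood at 3.26, 34.7, 101 and 158 CPM in bins 1, 7, 9 and 10 of the LTS library, and at 4.39, 30.0, 80.2 and 145 CPM in those of the control library. Nr4a2 stood at 13.0, 38.1, 110 and 272 CPM in the same bins of the LTS library, and at 14.7, 33.8, 99.1 and 176 CPM in the control library.

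**Figure D2:**
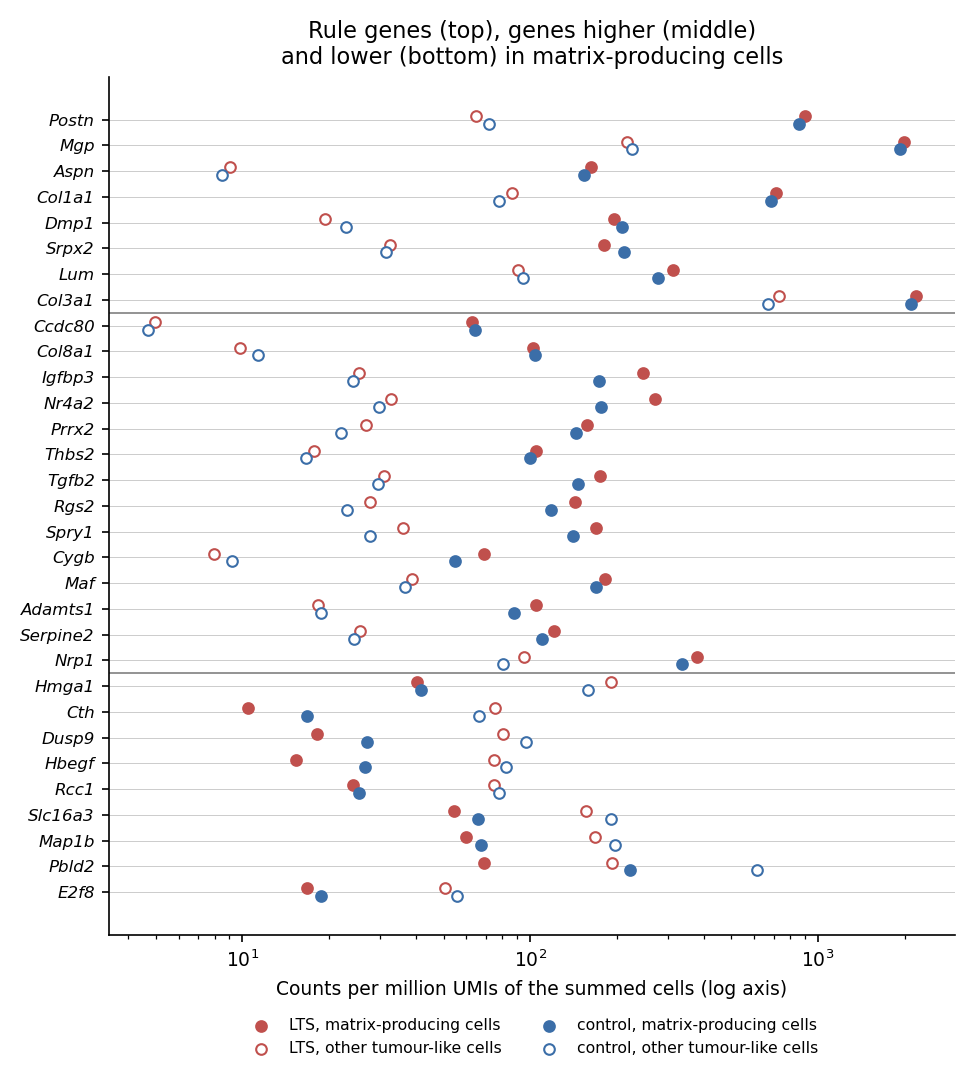
CPM (log axis) of the 8 rule genes (top), the 14 genes named as higher (middle) and 9 genes named as lower (bottom), in matrix-producing cells (filled) and other tumour-like cells (open) of the LTS (red) and control (blue) libraries. For every gene shown the filled points of both libraries lie on the same side of the open points of that library.

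The genes named as lower included a chromatin gene. Hmga1 (an AT-hook protein that bends DNA; mm10 chr17:27556497-27563674) stood at 40.5 CPM in matrix-producing and 190 CPM in other tumour-like cells of the LTS library, and at 41.8 and 159 CPM in the control library, with log2 ratios of -2.10 and -1.81. Cth, an enzyme that makes cysteine, had log2 ratios of -2.38 (LTS) and -1.71 (control). Dusp9, a phosphatase of MAP kinases, had log2 ratios of -1.89 and -1.67, and Hbegf, a ligand of the EGF receptor, of -1.98 and -1.47. Slc16a3, the lactate exporter of glycolytic cells, had ratios of -1.45 and -1.47. The nuclear transport gene Rcc1 had ratios of -1.46 and -1.45, the microtubule gene Map1b of -1.41 and -1.48, and the cell cycle factor E2f8 of -1.36 in both. Pbld2 had ratios of -1.41 and -1.44. The genes named as lower thus included a lactate exporter, an EGF receptor ligand and genes of the cell cycle. Hmga1 was lower in each successive one of bins 1, 4, 7 and 10 of the score, at 312, 209, 131 and 40.5 CPM in the LTS library and 248, 160, 113 and 41.8 CPM in the control library.

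**Figure D3:**
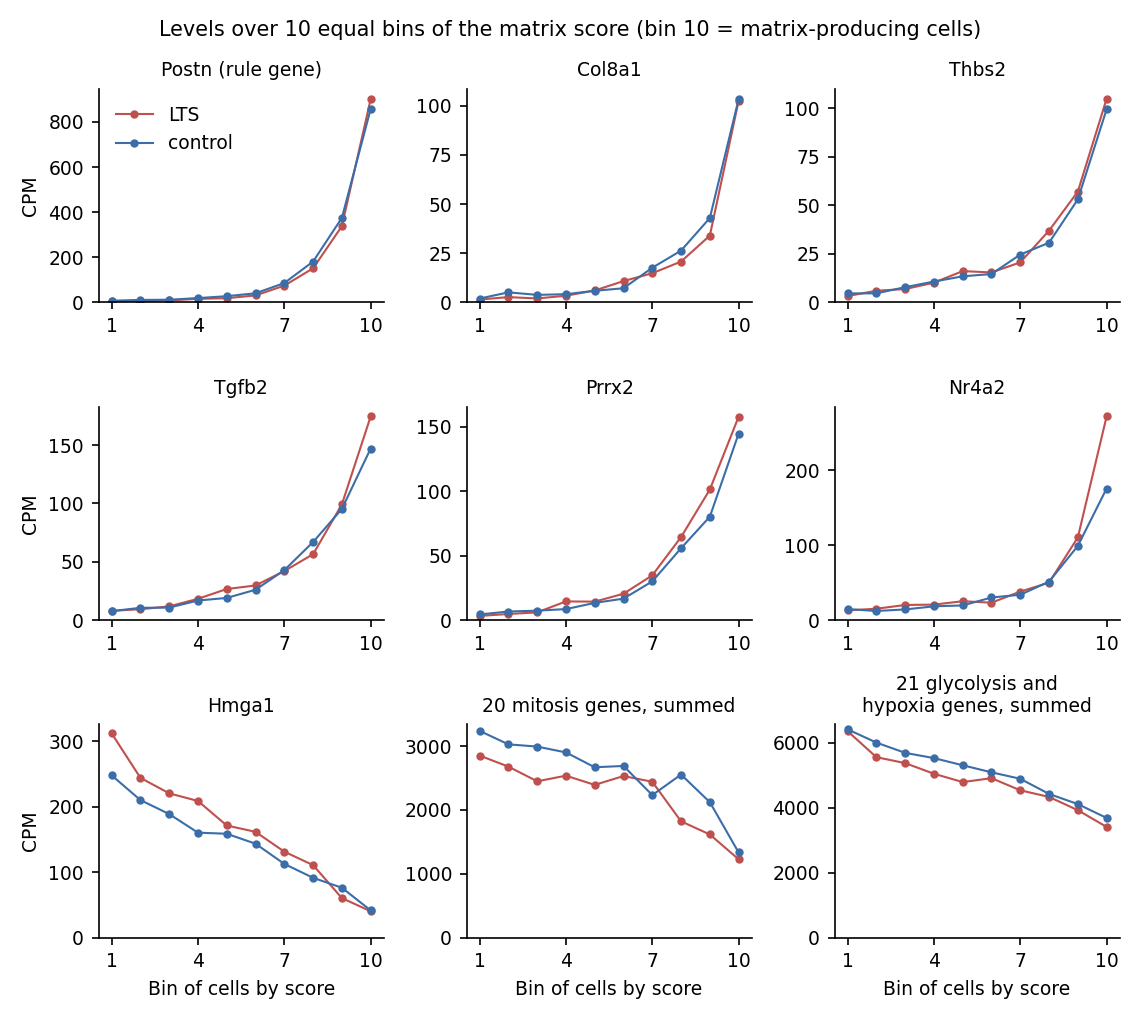
CPM over 10 equal bins of all tumour-like cells ordered by matrix score, with the libraries pooled for the ordering and shown apart (LTS red, control blue). Bin 10 holds the matrix-producing cells: Postn, a rule gene, and 5 genes outside the rule climb towards it, while Hmga1 and the summed mitosis and glycolysis lists decline.

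Matrix genes outside the rule were described by list, as the number of genes that reached 20 CPM and how many were called in both libraries. Of the network, beaded-filament and other non-fibrillar collagens, 11 of 16 were measured, all 11 had positive ratios and 8 were called higher, with medians of 1.16 in both libraries. Col12a1 (log2 ratios 2.13 and 1.94), Col6a3 (1.57 and 1.42) and Col4a5 (1.54 and 1.59) were among them. Col6a1, a chain of the beaded filaments, stood at 687 and 304 CPM in the LTS library and at 679 and 303 CPM in the control library. Of 9 fibrillar collagen genes outside the rule 2 were measured and both were called higher, Col24a1 (1.94 and 1.89) and Col5a1 (1.15 and 1.10). Of 20 matricellular genes 11 were measured and 8 were called higher, with medians of 1.65 (LTS) and 1.60 (control). Tnc (tenascin C) had ratios of 1.83 and 1.60, Sparc (osteonectin) 1.65 and 1.70, and Comp, a thrombospondin of cartilage and tendon, 1.93 and 2.10. Of the small leucine-rich proteoglycans, 3 of 10 were measured, and Bgn (biglycan, 1.88 and 1.93) and Ogn (osteoglycin, 1.46 and 1.79) were called higher. A gene could reach 20 CPM through the members alone, which favours positive ratios. Of the 11 non-fibrillar collagens, 9 also reached it in the other cells of both libraries, of which 6 were called higher, with medians of 1.13 (LTS) and 1.15 (control). Of the 11 matricellular genes 6 did, of which 3 were called higher, with medians of 0.95 and 1.11. Of the fibrillar collagens outside the rule Col5a1 alone did. Of the 3 small leucine-rich proteoglycans 2 did, of which 1 was called higher.

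Fibre-organising genes were mixed. Of 18 elastic fibre and fibronectin genes 9 were measured and 4 were called higher, with medians of 0.62 (LTS) and 0.82 (control). Fn1 (fibronectin) stood at 1964 and 619 CPM in matrix-producing and other cells of the LTS library, and at 1772 and 542 CPM in the control library. Mfap2 (1.69 and 1.81), Emilin1 (1.52 and 1.63) and Fbn1 (1.45 and 1.52), genes of microfibrils and elastic fibres, made up the rest. Fbln2 ran the other way, at -0.72 and -0.70, short of the 2-fold limit. Of the genes that modify, fold and crosslink collagen, 18 of 29 were measured, with medians of 0.44 and 0.34. In both libraries 1 was called higher (Fkbp14, 1.08 and 1.42) and 1 lower. Of the 16 that reached 20 CPM in the other cells of both libraries, none was called higher. Pcolce2, an enhancer of procollagen cleavage, stood at 7.05 and 43.6 CPM in the LTS library and at 9.01 and 54.0 CPM in the control library. Serpinh1, the collagen chaperone, had ratios of 0.15 in both. Of 20 genes of the secretory pathway and unfolded protein response all were measured and 0 were called in either direction, with medians of -0.01 and -0.03. The secretory pathway genes were thus close to the median of all genes. Among cells at or above the median UMIs of their library, 20 LTS and 26 control members were left. With these kept, the medians were 1.03 (LTS) and 1.37 (control) for non-fibrillar collagens and 1.39 and 1.44 for matricellular genes. With members chosen again there, they were 0.79 and 0.85 for non-fibrillar collagens and 1.21 and 1.24 for matricellular genes.

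Of 25 genes of mineralised tissue outside the rule 8 were measured, and 8 of the 25 had no UMI in the members of each library. Of the 8 measured, 7 had positive ratios in both libraries, with medians of 1.07 (LTS) and 0.90 (control). In both libraries 3 were called higher and 1 lower. Of the 7 that reached 20 CPM in the other cells of both libraries, 2 were called higher, with medians of 1.04 and 0.82. Among low-cycling cells the list medians were 0.71 (LTS) and 0.60 (control). With the members kept among cells at or above the median UMIs, they were 1.13 and 0.56. Tnfsf11 (RANKL, the signal that forms osteoclasts) had ratios of 1.53 and 1.51, Enpp1, which makes the calcification inhibitor pyrophosphate, 1.04 and 1.05, and Spp1 (osteopontin, also in the matricellular list) 1.04 and 1.08. Alpl, the phosphatase that breaks down pyrophosphate, was lower, at 10.1 and 41.6 CPM in the LTS library and at 10.3 and 46.5 CPM in the control library. Short of a call in both, Bmp2, a bone morphogenetic protein, had ratios of 1.22 and 0.77, the homeobox gene Msx1 1.15 and 0.82, the pyrophosphate transporter gene Ank 1.09 and 0.99, and Runx2, the transcription factor of osteoblasts, 0.47 and 0.50. Of 10 osteoblast and osteocyte markers, which include the rule gene Dmp1, 2 were measured outside the rule. These were Runx2, with positive ratios, and Alpl, called lower, with medians of -0.58 (LTS) and -0.63 (control). Of 15 cartilage genes 4 were measured, Comp was called higher and Sox9 had ratios of -0.47 and -0.48. Of the 3 cartilage genes that reached 20 CPM in the other cells of both libraries, none was called higher. Of 8 tendon genes, Scx (0.29 and 0.34) and Crabp2 (0.15 and 0.29) were measured, and neither was called. Of 20 metalloproteinase and inhibitor genes 5 were measured. Adamts1 and Mmp14, the membrane-bound collagenase (1.55 and 1.53), were called higher, and Timp1 had ratios of -0.08 and -0.12. Adamts1 was measured through the members alone. Of the 4 that reached 20 CPM in the other cells of both libraries, 1 was called higher.

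**Figure D4:**
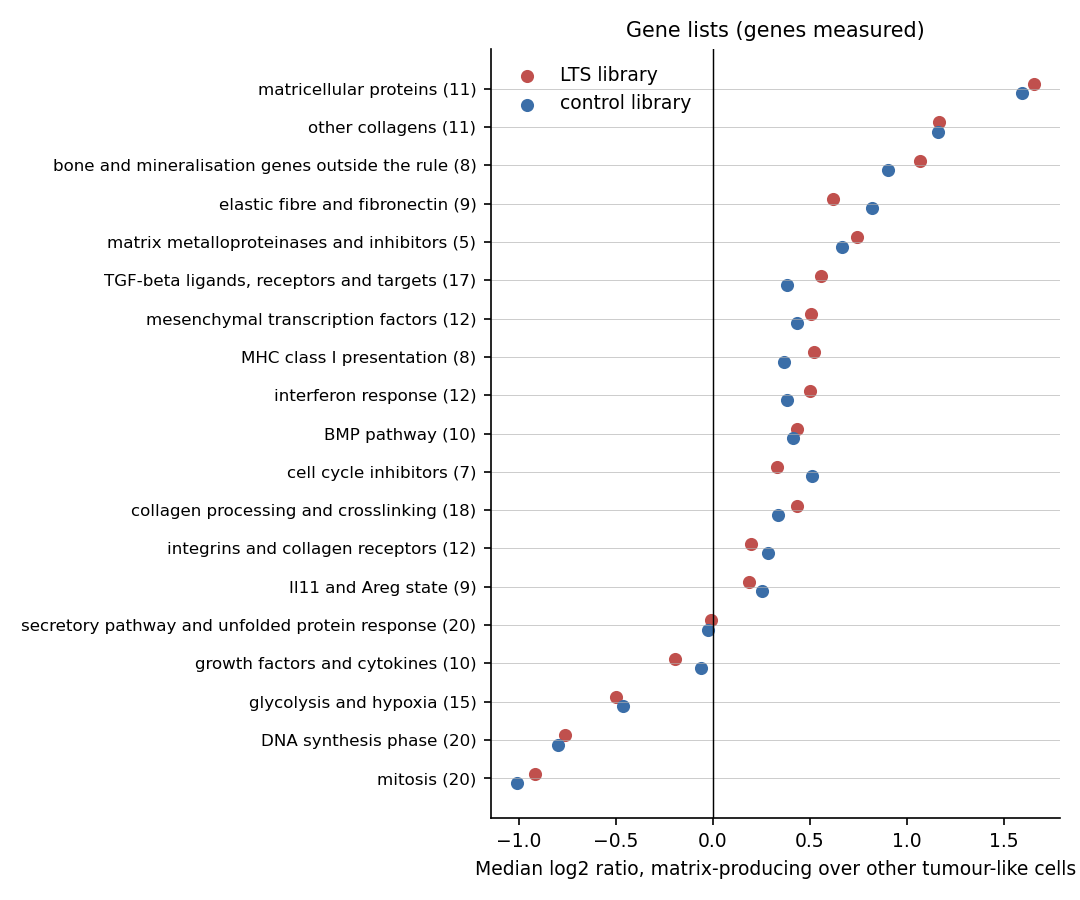
Median log2 ratio of matrix-producing over other tumour-like cells for each gene list with 5 or more measured genes (number in brackets), in the LTS (red) and control (blue) libraries. Matricellular and non-fibrillar collagen genes lie highest, at 1.65 and 1.16 in the LTS library, secretory pathway genes lie near 0, and mitosis genes lie lowest, at -0.92 in the LTS library and -1.01 in the control library.

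Of the TGF-beta ligands, receptors and targets, 17 of 21 were measured and 3 were called higher, with medians of 0.56 (LTS) and 0.38 (control). These were the ligand gene Tgfb2, Inhba (a subunit of activins, 1.93 and 1.46) and Nrep (1.37 and 1.48). For Inhba a single cell held 26.6% of the UMIs of LTS members and another 16.9% of those of control members. Tgfb3 had ratios of 0.99 and 1.09, and Tgfbr2, the type II receptor, 0.88 and 0.84. Smad4, the shared intracellular mediator, had ratios of -0.25 and -0.19. Of 21 BMP genes 10 were measured and 1 was called higher, Id3, a target of BMP signalling, at 1.71 and 1.65. Of 23 mesenchymal transcription factors 12 were measured and Prrx2 alone was called, while Twist1 had ratios of 0.82 and 0.74 and Snai2 of -0.53 and -0.37. Of 21 integrin and collagen receptor genes 12 were measured and 3 were called higher, Itga10 (1.50 and 1.57), Itga8 (1.40 and 1.30) and Itgb5 (1.28 and 1.32). Of the 10 that reached 20 CPM in the other cells of both libraries, 1 was called. Of the Wnt genes 4 of 18 were measured and none was called, and of the contractile genes 4 of 13 were measured and none was called. Among ligands Tgfb2 and Inhba were thus called, and no TGF-beta receptor or Smad gene was.

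All 20 DNA synthesis genes and all 20 mitosis genes had negative ratios in both libraries. Of the synthesis genes 2 were called lower, Rrm2 (-1.46 and -1.07) and E2f8, with medians of -0.76 and -0.80. Of the mitosis genes 3 were called lower, Birc5 (-1.24 and -1.16), Aurka (-1.17 and -1.34) and Top2a (-1.10 and -1.01), with medians of -0.92 and -1.01. Among cells at or above their library's median UMIs, with the 20 LTS and 26 control members left there, the mitosis medians were 0.06 (LTS) and -0.35 (control), and those of the synthesis genes -0.33 and -0.16. The 40 genes together had a median of 9 UMIs per 10000 in matrix-producing and 37 in other tumour-like cells of the LTS library, and of 12 and 42 in the control library. Of 11 cell cycle inhibitor genes 7 were measured and Gas1 was called higher (1.74 and 1.96), while Cdkn1a did not reach 20 CPM in both libraries. In cells thinned to 10000 UMIs, Cdkn1a was found in fewer members than other cells. It had a UMI in 6.56% and 15.1% of them in the LTS library, and in 7.65% and 15.2% in the control library. Mki67, a proliferation marker, was lower in members but present, at 74.1 and 145 CPM in the LTS library and at 92.9 and 196 CPM in the control library.

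Of 21 glycolysis and hypoxia genes 15 were measured and 14 had negative ratios in both libraries, with medians of -0.50 and -0.46. Eno1, a glycolytic enzyme (-1.19 and -1.12), and the hypoxia-induced Ndrg1 (-1.73 and -1.39) were called lower, and Pfkp had ratios of 0.88 and 0.47. Of 20 interferon response genes 12 were measured and none was called, with medians of 0.50 and 0.38. With the members kept among cells at or above the median UMIs, these medians were -0.85 (LTS) and 0.32 (control). The MHC class I list gave 8 of 14 measured and none called, with medians of 0.52 and 0.37, and of 0.02 and 0.38 with the members kept among cells at or above the median UMIs. Among low-cycling cells the MHC medians were 0.49 and 0.12. Of 25 growth factor and cytokine genes 10 were measured. Fgf2 (1.59 and 1.65) and Pdgfc (1.12 and 1.22) were called higher and Hbegf lower. Of the 9 that reached 20 CPM in the other cells of both libraries, 1 was called higher. Of the lists for other tumour states, Il11 and Areg had 9 of 13 genes measured with Hbegf called lower. In the Scx and Crabp2 list Crabp1 was called lower (-1.97 and -1.74), and in the Pbld2 and Klra4 list Pbld2 and Klra4 (-1.90 and -1.57). Taking the top 10% by each of these scores, 4 of the 510 members (0.784%) were also in the Pbld2 and Klra4 range, 3 (0.588%) in the glycolysis and hypoxia range, 56 (11.0%) in the Scx and Crabp2 range, 50 (9.80%) in the Il11 and Areg range and 52 (10.2%) in the interferon range. In the TGF-beta range there were 211 (41.4%), as shares of both ranges since each holds 510 cells.

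The genes most like the matrix score over single cells were ranked by the lower of the Spearman correlations of both libraries, over 1389 LTS and 3714 control cells thinned to 10000 UMIs. Fn1 was first (0.76 in the LTS library, 0.71 in the control library), then the heparin-binding growth factor gene Ptn (0.62 and 0.61), Spp1 (0.60 and 0.61) and Malat1 (0.59 and 0.61). Tcf4, Sparc, Ank, Ace, Cst3 and Cd9 made up the rest of the first 10, with lower values of 0.57 to 0.46. The median over all 6599 genes was -0.01 in both libraries.

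The share of tumour-like cells in the matrix-producing range was 13.2% in the LTS library (95% exact binomial interval 11.4 to 15.1) and 8.80% in the control library (7.91 to 9.76), a log2 ratio of 0.58. With a stricter gate (no UMI of Ptprc or of the endothelial genes and at most 2 of C1q) the shares were 13.1% and 8.80%. With the top 5% they were 7.06% and 4.23%, a log2 ratio of 0.74. With the top 20% they were 23.8% and 18.6%, a log2 ratio of 0.35. Thinning and a lower UMI limit also narrowed the difference. With the score on cells thinned to 10000 UMIs, the shares were 12.7% and 8.99%. With cells of 5000 or more UMIs, they were 11.9% in the LTS library and 9.29% in the control library. With gate and score both on thinned cells, they were 11.2% and 9.43%. With cells of 5000 or more UMIs and gate and score thinned to 5000 UMIs, they were 9.86% in the LTS library (8.68 to 11.1) and 10.1% in the control library (9.25 to 10.9). Low-cycling cells numbered 452 of 1389 tumour-like cells in the LTS library and 787 of 3714 in the control library. Of them 29.0% and 27.7% were members by the rule as given, with no top 10% chosen again. The limit of 2 endothelial UMIs was the sole reason for leaving out 1040 LTS and 1147 control barcodes. Within bins of depth the LTS share was higher in 4 of 5. It was 34.2% in the LTS library and 5.88% in the control library at 15000 to 20000 UMIs, 33.8% and 1.43% at 20000 to 30000, and 6.85% and 1.16% at 30000 to 50000. At 50000 or more it was 1.89% of 317 LTS cells and 0 of 15 control cells (exact upper bound 21.8%). At 10000 to 15000 UMIs it was lower, with 17.3% of 52 LTS cells and 29.8% of 801 control cells. The libraries differed in depth as given above, so a bin takes a different part of each. A difference between conditions in the share cannot be told apart from depth or from the part of cycling cells here.

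**Figure D5:**
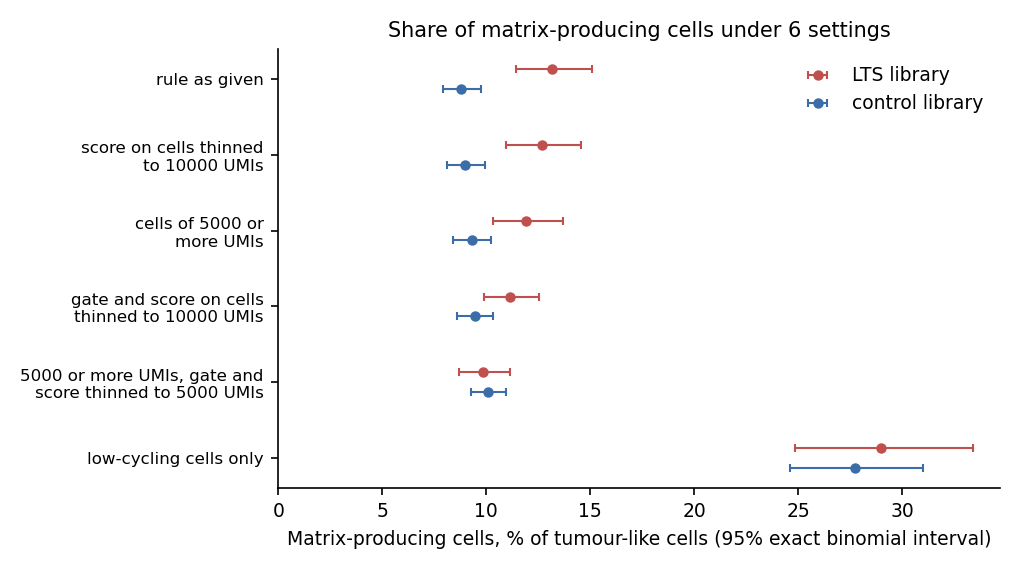
Percent of tumour-like cells that are matrix-producing in the LTS (red) and control (blue) libraries under 6 settings, with exact binomial 95% intervals. In the low-cycling setting the members by the rule as given were kept, and no top 10% was chosen again. The LTS share lies above the control share with the rule as given (13.2% and 8.80%), and below it when the limit is 5000 UMIs and gate and score use cells thinned to 5000 UMIs (9.86% and 10.1%).

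Few genes differed by 2-fold between the matrix-producing cells of the libraries. Of 6542 genes with 20 CPM in either library, 1 was called 2-fold higher in LTS members (0.0153%) and 9 lower (0.138%), with a median log2 ratio of -0.02. In the other tumour-like cells 0 of 6403 were called higher (0%) and 14 lower (0.219%), with a median of -0.03. The gene called higher was Ttr, a choroid plexus marker, with 109 UMIs in LTS members and 14 UMIs in control members, a log2 ratio of 1.75 in CPM, and at 36.1 CPM and 15.6 CPM in the other tumour-like cells of the LTS and control libraries. Of the 9 called lower, C1qb (12.1 CPM in LTS members and 32.4 CPM in control members) and C1qc (7.45 and 20.8 CPM) are myeloid markers. Both count towards the gate's limit of 10 C1q UMIs per cell, which is the same at any depth. Members had a median of 25788 UMIs in the LTS library and 13303 in the control library. The limit thus allowed a higher CPM in control members, and its part in these calls was not tested. The others were Pbld2, Snhg9, Dennd5b, Exoc1, Mpv17l, Sag and the mitochondrially encoded mt-Atp8. The part of choroid plexus and myeloid RNA in these calls was not tested. Ttr, C1qb, C1qc, Mpv17l, Sag and mt-Atp8 fell outside the rule for named genes and were chosen after their values were seen. Pbld2 stood at 68.9 CPM in LTS members and 222 CPM in control members, and at 192 and 612 CPM in the other tumour-like cells. Its log2 ratio of LTS over control was -1.62 in members and -1.65 in others. The small nucleolar RNA host gene Snhg9 (-1.47 in members and -1.57 in others), Dennd5b (-1.01 and -1.37) and Exoc1, a subunit of the exocyst (-1.0 and -1.28), followed the same order in both kinds of cell. So did Nmt1 (-0.98 and -0.79), Taf1d (-0.74 and -0.75) and Ddx21, an RNA helicase of the nucleolus (-0.69 and -0.58). Apoe (-0.81 and -0.93), abundant in myeloid cells, did so as well. The myeloid marker sum given above, which holds genes that the gate limits, was also lower in the LTS library in both kinds of cell. Its part in the Apoe ratio was not tested. The genes named as lower in LTS members thus had ratios of the same sign and similar size in the other tumour-like cells.

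The genes named by rule as higher in LTS members had smaller ratios, none of them called. Gem, a small GTPase that inhibits calcium channels, stood at 105 CPM in LTS members and 55.4 CPM in control members, a log2 ratio of 0.87, against 0.33 in the other cells. Nr4a2 stood at 272 and 176 CPM (0.62, against 0.12 in others), Aqp1, a water channel gene, at 75.1 and 49.4 CPM (0.56, against 0.05) and Igfbp3 at 246 and 173 CPM (0.50, against 0.06). Mapk1ip1l (0.65), Irf2bp2 (0.59), Kirrel (0.56) and Tnpo2 (0.51) had ratios of 0.37, 0.39, 0.39 and 0.20 in other cells. In the opposite direction, Hmox1, the stress-induced haem oxygenase, stood at 61.4 and 90.1 CPM in LTS and control members (-0.52, against 0.13 in others), with 23% of its LTS member UMIs in 1 cell. Vcan, a large proteoglycan, had ratios of -0.36 in members and 0.20 in others, Yeats4 of -0.64 and -0.10, and the histone gene Hist1h2ap of -0.07 and 0.46. Ifit1, an interferon-induced gene, had ratios of 0.26 and -0.30, with 21.9% of its LTS member UMIs in 1 cell. With 1 library per group, none of these can be set against a spread between animals. The rule genes had log2 ratios between -0.24 for Srpx2 and 0.17 for Lum in members, a range that the common limit on their score constrains.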

How the data were processed

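The deposited files hold UMI counts per gene and barcode, made by the authors with Cell Ranger 4 per the file headers and mm10 per the submitters' processing notes. They are unfiltered, with 6794880 barcodes and 27998 genes, and total 149413534 UMIs in the LTS library and 165796852 in the control library. No doublet caller was run. Cells above the 95th percentile of UMIs were left out as an alternative.

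The members and gene lists were chosen with earlier results of these data known. Counts were summed over members and over other tumour-like cells per library, converted to CPM, and set against each other as log2 ratios after adding 5 CPM, among genes of 20 CPM or more. Gene ratios carry exact conditional and shares exact Clopper-Pearson 95% intervals. Both treat UMIs or cells as independent. Genes were named by size of ratio: 14 higher and 10 lower in members, 8 and 8 between libraries, and 4 and 4 by the difference from other cells, among those of 50 CPM or more with UMIs in 10% of cells. Of the 10, 1 is not reported here. Mitochondrial, ribosomal, haemoglobin and sex-linked genes, antigen receptor segments and gene models without a name were left out. Of each gene list with 5 or more measured genes, the 2 largest and 2 smallest, and all genes of lists of 10 or fewer measured, were named. Further list genes printed above, such as Col6a1, Sparc, Tnc, Serpinh1, Twist1 and Tgfbr2, were chosen after their values were seen. Positions are from GENCODE M21. The steps were tested on simulated cells (python 3.11.15, numpy 2.4.6, scipy 1.17.1, pandas 2.3.3, matplotlib 3.10.9).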

Additional observations from a re-analysis of the deposited data

Results flagged for a closer look

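Cells with a high matrix score also occurred outside the tumour-like limits, in barcodes that no comparison used. In the LTS library 49 of 1463 such barcodes (3.35%) and in the control library 38 of 1388 (2.74%) scored at or above the lowest member. Of these, 44 LTS and 28 control barcodes missed the limit on endothelial UMIs alone. Whether they are tumour cells that carry endothelial RNA, or other cells, was not tested.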

How the results depend on the processing

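The results were recomputed under 26 alternatives, 6 of them chosen after seeing the data (both limits of 5000 UMIs, gate and score on thinned cells, low-cycling cells, and leaving out cells below their library's median UMIs, with members chosen again or kept). The log2 ratio of the member share (0.58) was 0.00259 when 10% were taken in each library, which fixes it, 1.04 with members kept at or above the median UMIs, and -0.0316 with 5000 or more UMIs and gate and score thinned to 5000. The 173 genes higher in members became 97 with a pseudocount of 20 CPM, 67 among low-cycling cells and 70 with members chosen again at or above the median UMIs. The 85 lower genes became 36 with the top 20%, 136 and 30 with pseudocounts of 1 and 20 CPM, 56 with gate and score on cells thinned to 10000, 16 among low-cycling cells, and 38 and 14 at or above the median UMIs with members kept and chosen again. The 1 gene higher in LTS members became 11 with the stricter gate, 0 with the top 5% or a pseudocount of 20 CPM, and 2 with thinned cells, a score without Srpx2 or Col3a1, a pseudocount of 1 CPM or low-cycling cells. The 9 lower genes became 14 with the stricter gate, 15 with a pseudocount of 1 CPM or no minimum, and 3 with a pseudocount of 20 CPM. With the 20 LTS and 26 control members at or above the median UMIs, 70 genes were higher and 131 lower in LTS members. The cause of these moves was not tested. Taking off free RNA left 173, 85, 1 and 9. The amount was the mean of barcodes with 1 to 100 UMIs, 2.14 UMIs per cell (LTS) and 2.01 (control). From cells of 10000 or more UMIs this is too little to move the counts, so this alternative does not show whether free RNA matters.

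Of 1964 values of named genes and lists, 1697 stayed within their counting interval (lists, within 0.2), 264 moved further and 3 reversed. With members kept at or above the median UMIs, the LTS medians were 0.0644 for mitosis and -0.85 for interferon genes. With members chosen again there, the LTS interferon median was -0.35 and the mitosis medians -0.10 (LTS) and -0.01 (control). Among low-cycling cells the medians of non-fibrillar collagens were 0.86 and 0.80 and those of matricellular genes 1.02 and 1.14. No paired analysis was possible because each group has 1 library.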
